A study of Mus musculus with 18 samples.

Results

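Glycolysis and pyruvate handling are covered here by 34 genes of mouse donor T cells after haematopoietic stem cell transplantation. They were the rows of the deposited count table whose symbol is on a list of glucose transporters, glycolytic enzymes, lactate enzymes and carriers, and proteins that move pyruvate into mitochondria. All 34 were found among the 46073 genes of the table, and all 34 were among the 18447 genes kept by the filter on low counts. T cells that divide take up more glucose and turn much of the resulting pyruvate into lactate, which leaves the cell through monocarboxylate carriers. The rest of the pyruvate enters mitochondria, where pyruvate dehydrogenase makes acetyl-CoA, and pyruvate dehydrogenase kinases switch that enzyme off. Many steps are served by several related genes (paralogues), and T cells are known to use some of them far more than others.

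The donor T cells came from C57BL/6 mice (CD45.2) that either lacked Wapl (Wapl KO, here KO) or were wild type (WT). Wapl takes the cohesin ring off chromosomes. The 12 libraries formed 4 groups of 3, namely allogeneic KO, allogeneic WT, syngeneic KO and syngeneic WT. Allogeneic recipients carried foreign tissue antigens and are named CByJ.SJL(B6)-Ptprca/J in the protocol and BALB/c in the cell type field, and syngeneic recipients were B6.SJL-Ptprca Pepcb/BoyJ. The cell type field of the syngeneic KO samples names the strain of the allogeneic recipients, and these samples were grouped by their transplant type and title. Donors were labelled female, and mice were 8 to 12 weeks old. Allogeneic recipients were irradiated with 8 Gy and given 1000000 donor splenic T cells, and syngeneic recipients were irradiated with 9.5 Gy and given 8500000, each with 5000000 T cell depleted marrow cells. Radiation dose, T cell dose and recipient strain therefore cannot be told apart from the transplant type. Live CD3+ CD45.2+ cells were sorted from recipient spleens on day 7, and each library was made from 100 ng of RNA of 2 to 4 pooled mice. The Cre line and the deleted exons are not given in the sources used here.

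Total counts per library ran from 45965659 to 89007100. Ribosomal RNA genes took 16.1 to 18.0% of the counts in allogeneic KO, 8.27 to 17.8% in allogeneic WT, 24 to 32.1% in syngeneic KO and 20.2 to 23.1% in syngeneic WT. Wapl (table symbol Wapal) was at 145, 124 and 151 CPM (counts scaled per 1000000 of the library) in allogeneic KO and 169, 156 and 158 CPM in allogeneic WT. It was at 127, 139 and 137 CPM in syngeneic KO and 170.1, 211 and 183 CPM in syngeneic WT, so the KO libraries lay below the WT libraries in both settings. The edgeR adjusted p was 0.963 in the allogeneic and 0.0368 in the syngeneic setting, and in the syngeneic setting it ran from 0.0157 to 0.198 as single libraries were left out. On the second principal component 1 library, replicate 1 of syngeneic KO, lay far from the others. The 11 T cell markers summed to 3588 to 5379 CPM in allogeneic KO, 3911 to 4362 in allogeneic WT, 3344 to 5187 in syngeneic KO and 2986 to 4011 in syngeneic WT. The 12 red cell precursor markers (erythroid, such as the haemoglobin genes) summed to 84.7 to 106 CPM in allogeneic KO, 53.6 to 177 in allogeneic WT, 90.9 to 253 in syngeneic KO and 2485 to 5952 in syngeneic WT. The 17 myeloid markers summed to 277 to 448 CPM in allogeneic KO, 386 to 630 in allogeneic WT, 67.5 to 418 in syngeneic KO and 286 to 855 in syngeneic WT. No T cell or erythroid marker was at 0 in any library, and of the myeloid markers 2 were at 0 in syngeneic KO replicate 1 and 1 in syngeneic KO replicate 2. The part of the other cell types in the results below was not tested, and in bulk samples fewer cells of a type and less RNA per cell cannot be told apart. RNA of 4 genes on the Y chromosome summed to 31.4 to 138 CPM in KO libraries and 0.733 to 1.75 in WT libraries, although the donors of both genotypes were labelled female. The members Pgk1, Pdha1 and Pdk3 lie on the X chromosome. Because every KO library lay above every WT library in Y-linked RNA, this difference cannot be told apart from the genotype. Its part in the comparisons of genotypes was not tested.

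Together the 34 genes took 0.650 ± 0.0824% of the counts outside ribosomal RNA genes in allogeneic KO, 0.613 ± 0.0467% in allogeneic WT, 0.591 ± 0.00546% in syngeneic KO and 0.468 ± 0.0285% in syngeneic WT (SD, n = 3 each). Syngeneic WT was the lowest group. Per kb of exon, Ldha, which reduces pyruvate to lactate, stood highest, with a level of 222 ± 59.2 CPM per kb in allogeneic KO, 191 ± 37.0 in allogeneic WT, 199 ± 36.4 in syngeneic KO and 135 ± 20.8 in syngeneic WT. Aldoa, an aldolase that splits the six-carbon sugar, Pkm, the pyruvate kinase, and Gapdh, glyceraldehyde phosphate dehydrogenase, came next. This order rests on the division by exon length. In CPM alone Pkm averaged 809 in allogeneic KO, 740 in allogeneic WT, 664 in syngeneic KO and 461 in syngeneic WT, above Ldha at 734, 633, 658 and 446. At the low end Eno2, the enolase typical of neurons, stood at 0.0599 ± 0.0448 CPM per kb in allogeneic KO, 0.0623 ± 0.0406 in allogeneic WT, 0.0799 ± 0.0371 in syngeneic KO and 0.0914 ± 0.0184 in syngeneic WT. Aldoc, Pfkfb4, Pfkfb2, Pdk2 and Ldhb were the next lowest by their mean over the 4 groups. In 7 of the 9 families compared, counting listed members only, 1 paralogue held most of the level per kb in every library. Pyruvate dehydrogenase kinases were counted as Pdk2 and Pdk3 alone, without Pdk1, which is outside the 34 genes and is described below. The exceptions were the glucose transporters Slc2a1 and Slc2a3, where the larger share changed with the transplant type, and the phosphofructokinases, where Pfkp held 47.6% of the family in syngeneic WT replicate 2. Both exceptions rest on the division by exon length: in counts alone Slc2a3 was the larger of its pair in each of the 12 libraries, and Pfkp held 70.3% of its family in syngeneic WT replicate 2, its lowest share.

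**Figure D1:**
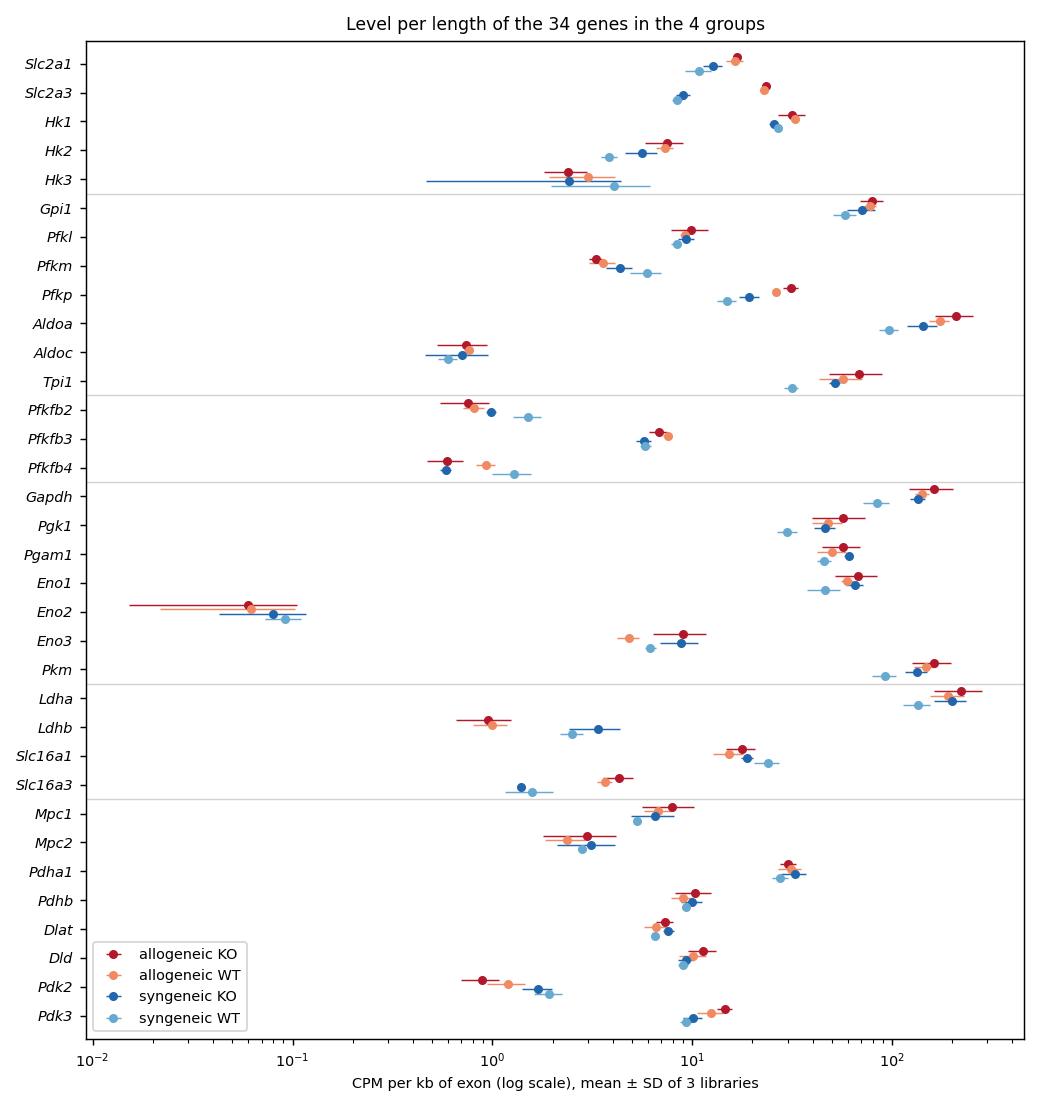
Levels of the 34 genes per kb of exon, as CPM per kb on a log axis, with points for the mean and bars for the SD of 3 libraries in each of the 4 groups. Genes run down the page by role, and Ldha stands highest while Eno2 stands lowest.

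Genes of this pathway are known targets of the hypoxia-inducible factor Hif1a and of Myc, so the promoters of the members were read for the letters these factors are known to bind. Windows of 250 bases before each RefSeq transcription start (GRCm38.p6) were searched on both strands for ACGTG and GCGTG, the core of the hypoxia response element, and for CACGTG, the E-box, which contains ACGTG. Of the 34 members, 33 had an entry, with 49 windows, and Slc2a3 had none. ACGTG or GCGTG stood in 77.6% of the member windows, beside 38.6% of all 32851 windows, and CACGTG stood in 12.2%, beside 6.02%. The G and C content was 60.1% in the member windows and 53.2% in all windows. A match describes letters only, and no binding was measured. Tpi1, Gpi1, Eno2, Dlat and Dld had no match in their windows. Shown 5′ to 3′ on the strand of the gene, with matches on either strand in capitals, are the windows of the lactate carriers Slc16a3 (chr11:120948817-120949066, plus strand) and Slc16a1 (chr3:104638414-104638663, plus strand), of the hexokinase Hk2 (chr6:82774455-82774704, minus strand) and of the lactate dehydrogenase subunit Ldhb (chr6:142507958-142508207, minus strand). They are printed because, in allogeneic WT against syngeneic WT, Slc16a3 and Hk2 were higher and Slc16a1 and Ldhb lower.
Slc16a3: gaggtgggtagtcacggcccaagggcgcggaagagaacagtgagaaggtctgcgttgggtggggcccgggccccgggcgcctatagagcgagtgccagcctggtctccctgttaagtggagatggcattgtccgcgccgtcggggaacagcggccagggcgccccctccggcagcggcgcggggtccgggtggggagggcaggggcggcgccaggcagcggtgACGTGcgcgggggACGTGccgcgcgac
Slc16a1: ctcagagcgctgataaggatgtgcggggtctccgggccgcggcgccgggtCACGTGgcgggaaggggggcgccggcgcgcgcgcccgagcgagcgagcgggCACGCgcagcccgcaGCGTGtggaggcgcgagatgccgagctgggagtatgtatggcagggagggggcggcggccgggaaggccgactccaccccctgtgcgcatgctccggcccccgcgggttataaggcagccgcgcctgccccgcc
Hk2: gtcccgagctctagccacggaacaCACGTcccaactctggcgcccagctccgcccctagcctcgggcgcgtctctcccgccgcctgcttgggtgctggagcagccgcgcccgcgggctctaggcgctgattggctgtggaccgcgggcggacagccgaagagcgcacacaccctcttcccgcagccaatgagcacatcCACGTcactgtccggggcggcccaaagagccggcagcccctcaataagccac
Ldhb: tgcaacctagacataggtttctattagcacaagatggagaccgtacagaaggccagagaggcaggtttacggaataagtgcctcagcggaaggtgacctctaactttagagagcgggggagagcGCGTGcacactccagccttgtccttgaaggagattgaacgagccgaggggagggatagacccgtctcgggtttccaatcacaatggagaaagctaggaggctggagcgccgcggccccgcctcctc
Slc16a3 and Hk2 each hold 2 matches of ACGTG, and Ldhb holds 1 GCGTG. Slc16a1 holds 1 CACGTG, which gives 2 matches of ACGTG over both strands, and 2 matches of GCGTG. By gene, 28 of the 33 members with an entry (84.8%) held ACGTG or GCGTG, beside 41.5% of all genes. Matches in the windows shown were therefore likely whatever the direction of the gene, and no conclusion on direction is drawn from them.

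The comparison of allogeneic with syngeneic cells asks how donor T cells that meet foreign tissue differ from those that do not. In KO, 6 members were higher and 2 lower in allogeneic cells, so 8 of 34 were called (edgeR adjusted p under 0.05), where 24.4% of the 18447 tested genes were called (13.2% higher and 11.2% lower). In WT, 12 members were higher and 5 lower, so 17 of 34 were called, where 32.3% of the tested genes were called (16.4% higher and 15.9% lower). DESeq2 called 9 members in KO and 19 in WT, where it called 29.3% and 36.7% of genes. By edgeR the share of members called in KO was close to that of all genes, and that in WT was above it. The median log2 fold change of the members was 0.12 in KO and 0.31 in WT, beside -0.02 and -0.03 over all tested genes. The 8 members called in KO were Slc2a1, Slc2a3, Pfkp, Aldoa, Slc16a3 and Pdk3, which were higher, and Ldhb and Pdk2, which were lower. All 8 were called in the same direction in WT, where 9 more were called, namely Hk2, Tpi1, Pfkfb3, Gapdh, Pgk1 and Pkm (higher) and Pfkm, Pfkfb2 and Slc16a1 (lower). Groups did not overlap for 6 members higher and 3 lower in KO (17% and 16.6% of tested genes) and for 17 higher and 6 lower in WT (28.2% and 27.5%).

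**Figure D2:**
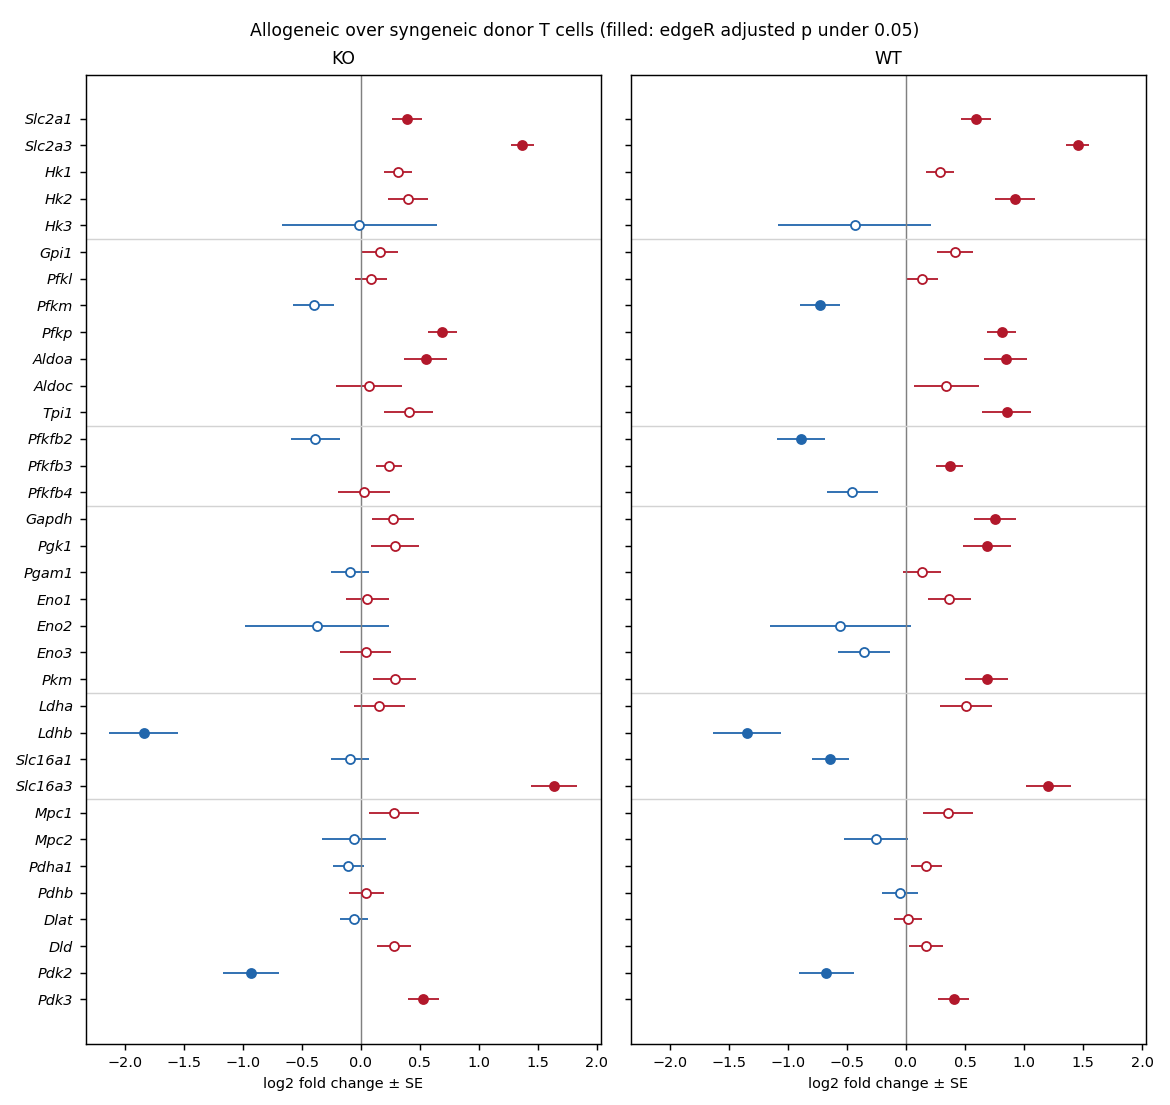
Log2 fold change of each member in allogeneic over syngeneic cells, for KO on the left and WT on the right, with bars for the standard error and filled points for an edgeR adjusted p under 0.05. Of the 34 members, 8 are filled in KO and 17 in WT, and the 8 are among the 17.

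Glucose entry differed most in Slc2a3, which encodes the transporter GLUT3 (ENSMUSG00000003153, GRCm38 chromosome 6, 122727809 to 122801640, minus strand). Slc2a3 was at 168, 171 and 167 CPM in allogeneic KO, 172, 166 and 161 in allogeneic WT, 67.8, 69.4 and 59.1 in syngeneic KO, and 63.3, 56.6 and 62.1 in syngeneic WT. The 6 allogeneic libraries lay within a narrow range far above the 6 syngeneic ones. Slc2a3 was 2.58-fold higher in allogeneic KO (log2 fold change 1.37 ± 0.10, SE, edgeR adjusted p = 9.35e-07) and 2.74-fold higher in allogeneic WT (1.46 ± 0.10, edgeR adjusted p = 4.40e-07). Slc2a1, which encodes GLUT1 (ENSMUSG00000028645, chromosome 4, 119108711 to 119137983, plus strand), was at 59.4, 58.7 and 57.2 CPM in allogeneic KO, 60.4, 60.2 and 50.6 in allogeneic WT, 48.9, 45.3 and 39.3 in syngeneic KO, and 44.4, 33.7 and 35.6 in syngeneic WT. No syngeneic library reached the lowest allogeneic one. The difference was 1.31-fold in KO (log2 0.39 ± 0.13, edgeR adjusted p = 0.0398) and 1.51-fold in WT (0.59 ± 0.13, edgeR adjusted p = 0.00361). The Slc2a1 call in KO was lost without allogeneic KO replicate 1 or 3, syngeneic KO replicate 2 or 3 or syngeneic WT replicate 3, with adjusted p from 0.0502 to 0.155. It was also lost under upper-quartile scaling (log2 0.29, edgeR adjusted p = 0.0781), with no filter (0.0610), in the 6 KO libraries alone (0.0623) and there with a replicate block (0.134).

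Hexokinases trap glucose as glucose 6-phosphate. Hk2, an isoform induced in activated T cells, was at 54.8, 35.9 and 42.5 CPM in allogeneic KO, 42.2, 40.1 and 48.1 in allogeneic WT, 27.2, 39.6 and 34.1 in syngeneic KO, and 21.4, 22.0 and 25.4 in syngeneic WT. Syngeneic WT was the lowest group with no overlap, while the 2 KO groups overlapped. Hk2 was 1.90-fold higher in allogeneic than in syngeneic WT (log2 0.92 ± 0.17, edgeR adjusted p = 0.00124), and in KO the log2 difference was 0.40 ± 0.17 (edgeR adjusted p = 0.103). Hk1, the more abundant hexokinase, was at 318, 241 and 253 CPM in allogeneic KO, 295, 273 and 269.8 in allogeneic WT, 230.1, 209.9 and 213 in syngeneic KO, and 218, 228 and 240.4 in syngeneic WT. Each allogeneic group lay above its syngeneic one, with log2 differences of 0.31 ± 0.12 in KO (edgeR adjusted p = 0.0742) and 0.29 ± 0.12 in WT (edgeR adjusted p = 0.0848), so neither passed the test with edgeR, while DESeq2 called both (adjusted p of 0.0253 and 0.0451). Hk3, a hexokinase known from myeloid cells, was at 9.06, 6.61 and 10.9 CPM in allogeneic KO, 13.3, 6.41 and 13.6 in allogeneic WT, 2.11, 8.18 and 16.5 in syngeneic KO, and 6.19, 18.0 and 20.7 in syngeneic WT. Within the 2 syngeneic groups its order over libraries was that of the summed myeloid markers, which were 67.5, 195 and 418 CPM in syngeneic KO and 286, 831 and 855 CPM in syngeneic WT. The same held in allogeneic WT (558, 386 and 630 CPM) but not in allogeneic KO (277, 448 and 382 CPM), where the library lowest in Hk3 was highest in these markers.

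In upper glycolysis the phosphofructokinases, which commit sugar to the pathway, moved in different directions. Pfkp, the platelet-type enzyme (ENSMUSG00000021196, chromosome 13, 6579768 to 6648777, minus strand), was at 422, 453 and 381 CPM in allogeneic KO, 353, 347 and 355 in allogeneic WT, 281, 270.2 and 227 in syngeneic KO, and 219, 176 and 207 in syngeneic WT. The groups followed each other downwards in that order without overlap. Pfkp was 1.61-fold higher in allogeneic than syngeneic KO (log2 0.69 ± 0.13, edgeR adjusted p = 0.00143) and 1.75-fold higher in WT (0.81 ± 0.13, edgeR adjusted p = 0.000344). Pfkm, the muscle-type enzyme, was at 11.5, 11.5 and 10.1 CPM in allogeneic KO, 14, 10.4 and 11.5 in allogeneic WT, 14.9, 12.2 and 16.6 in syngeneic KO, and 15.9, 22.3 and 21.1 in syngeneic WT. Pfkm was lower in allogeneic WT than in syngeneic WT (log2 -0.73 ± 0.17, edgeR adjusted p = 0.00588), and in KO its log2 difference was -0.40 ± 0.17 (edgeR adjusted p = 0.106), which passed under upper-quartile scaling (-0.52, 0.0394). Pfkl, the liver-type enzyme, ran from 57.9 to 81.9 CPM in allogeneic KO, 57.9 to 64.3 in allogeneic WT, 56.6 to 67.6 in syngeneic KO and 52.1 to 57.9 in syngeneic WT, and passed neither test.

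Aldoa was at 687, 686 and 457 CPM in allogeneic KO, 565, 448 and 501 in allogeneic WT, 497, 389.7 and 363 in syngeneic KO, and 310.5, 247 and 285 in syngeneic WT. The WT groups were apart, whereas allogeneic KO replicate 3 fell within the range of syngeneic KO. The log2 fold change was 0.55 ± 0.18 in KO (edgeR adjusted p = 0.0419) and 0.84 ± 0.18 in WT (edgeR adjusted p = 0.00343). In KO the Aldoa call was lost without allogeneic KO replicate 1 or 2, allogeneic WT replicate 3, syngeneic KO replicate 2 or 3 or syngeneic WT replicate 3 (adjusted p from 0.0545 to 0.147), and in the 6 KO libraries alone with or without a replicate block (0.117 and 0.113). Tpi1, the triose phosphate isomerase, was at 238, 199 and 128 CPM in allogeneic KO, 198, 126 and 146 in allogeneic WT, 152, 142 and 133 in syngeneic KO, and 88.5, 78.8 and 92.3 in syngeneic WT. It was 1.81-fold higher in allogeneic than syngeneic WT (log2 0.85 ± 0.21, edgeR adjusted p = 0.00737), while the KO groups overlapped (0.40 ± 0.21, edgeR adjusted p = 0.175). Gpi1, which isomerises glucose 6-phosphate, averaged 512 ± 66.9 CPM in allogeneic KO, 503 ± 34.9 in allogeneic WT, 457 ± 74.5 in syngeneic KO and 376 ± 48.5 in syngeneic WT, and missed the threshold in WT (log2 0.42 ± 0.15, edgeR adjusted p = 0.0534), which it passed with DESeq2 (0.0215) and under 5 other settings (0.0183 to 0.0475). Aldoc ran from 1.94 to 3.19 CPM in allogeneic KO, 2.41 to 2.62 in allogeneic WT, 1.82 to 3.22 in syngeneic KO and 1.74 to 2.15 in syngeneic WT.

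The PFKFB enzymes set the level of fructose 2,6-bisphosphate, which activates phosphofructokinase. Pfkfb3, the most abundant of them here, was at 52.6, 45.2 and 56.0 CPM in allogeneic KO, 54.6, 60.2 and 56.0 in allogeneic WT, 40.3, 47.6 and 42.4 in syngeneic KO, and 47.3, 42.7 and 42.2 in syngeneic WT. Its log2 fold change was 0.24 ± 0.11 in KO (edgeR adjusted p = 0.136) and 0.37 ± 0.11 in WT (edgeR adjusted p = 0.0222). The WT call was lost without allogeneic WT replicate 2 or 3 or syngeneic WT replicate 2 or 3 (adjusted p from 0.0587 to 0.0869), and under upper-quartile scaling (log2 0.26, edgeR adjusted p = 0.154). Pfkfb2 was at 4.27, 4.97 and 7.19 CPM in allogeneic KO, 5.19, 6.56 and 5.88 in allogeneic WT, 6.77, 7.61 and 7.10 in syngeneic KO, and 8.88, 11.9 and 11.9 in syngeneic WT. Pfkfb2 was thus highest in syngeneic WT, and it was lower in allogeneic than in syngeneic WT (log2 -0.89 ± 0.20, edgeR adjusted p = 0.00503). Its log2 fold change in KO was -0.38 ± 0.20 (edgeR adjusted p = 0.190).

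The lower pathway, from glyceraldehyde 3-phosphate to pyruvate, held 0 of 7 members called in KO and 3 of 7 in WT, all higher, beside 24.4% and 32.3% of all tested genes. With 7 genes these counts do not set the group apart. Gapdh was at 841, 667 and 507 CPM in allogeneic KO, 639, 549 and 572 in allogeneic WT, 608, 508 and 551 in syngeneic KO, and 389, 290.5 and 364 in syngeneic WT. Only syngeneic WT stood apart from the other 3 groups. In allogeneic over syngeneic WT the log2 fold change of Gapdh was 0.75 ± 0.18 (edgeR adjusted p = 0.00626), and in KO it was 0.27 ± 0.18 (edgeR adjusted p = 0.284). Pgk1, the phosphoglycerate kinase, was at 147, 151 and 83.0 CPM in allogeneic KO, 128, 93.3 and 102 in allogeneic WT, 118, 94.0 and 99.7 in syngeneic KO, and 74.8, 59.4 and 67 in syngeneic WT. Pkm was at 968, 845 and 613 CPM in allogeneic KO, 848, 683 and 689.7 in allogeneic WT, 759, 626 and 607 in syngeneic KO, and 519.6, 393 and 470.1 in syngeneic WT. Both again had syngeneic WT as the lowest group with no overlap. In WT, Pgk1 was higher by a log2 fold change of 0.69 ± 0.20 (edgeR adjusted p = 0.0221) and Pkm by 0.68 ± 0.18 (edgeR adjusted p = 0.0117). The Pgk1 call was lost without allogeneic WT replicate 1 or syngeneic WT replicate 2 or 3 (adjusted p from 0.0625 to 0.0932), and the Pkm call without allogeneic WT replicate 1 or syngeneic WT replicate 2 (adjusted p of 0.0521 and 0.0604).

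The remaining lower members did not pass the test over 12 libraries in either genotype. Pgam1, the phosphoglycerate mutase, was at 132, 120.4 and 85.3 CPM in allogeneic KO, 115, 81.8 and 102 in allogeneic WT, 127, 118 and 115 in syngeneic KO, and 95.4, 81.9 and 93.8 in syngeneic WT. Eno1, the main enolase, was at 443, 379 and 272 CPM in allogeneic KO, 339, 295 and 327 in allogeneic WT, 386, 319 and 347 in syngeneic KO, and 295, 204 and 246 in syngeneic WT. Its log2 fold change in WT was 0.37 ± 0.18 (edgeR adjusted p = 0.135), and the 6 WT libraries alone gave an adjusted p of 0.0495 without and 0.0306 with a replicate block. Allogeneic KO replicate 3 was the lowest library of its group for Aldoa, Tpi1, Gapdh, Pgk1, Pgam1, Eno1, Pkm and Ldha. Its summed proliferation markers (4585 CPM, against 6810 and 5000 in replicates 1 and 2) and T cell markers (3588 CPM, against 4206 and 5379) were also the lowest of its group. In syngeneic WT, replicate 1 had the lowest proliferation sum (3923 CPM, against 4828 and 5140) but the highest level of these genes other than Tpi1. That library also had the highest T cell sum of its group (4011 CPM, against 2986 and 3102) and the lowest erythroid sum (2485 CPM, against 5952 and 5053). The part of proliferation and cell content in these levels was not tested.

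Lactate handling held the members with the largest log2 fold changes in KO, Ldhb and Slc16a3, whereas in WT Slc2a3 had the largest. Slc16a3, which encodes the lactate exporter MCT4 (ENSMUSG00000025161, chromosome 11, 120948480 to 120960868, plus strand), was at 27.0, 22.6 and 19.3 CPM in allogeneic KO, 20.1, 17.5 and 20.8 in allogeneic WT, 7.38, 7.73 and 7.04 in syngeneic KO, and 5.93, 9 and 10.4 in syngeneic WT. All 6 allogeneic libraries lay above all 6 syngeneic ones. Slc16a3 was 3.11-fold higher in allogeneic KO (log2 1.64 ± 0.20, edgeR adjusted p = 5.59e-05) and 2.31-fold higher in allogeneic WT (1.21 ± 0.19, edgeR adjusted p = 0.000431). Ldhb, the lactate dehydrogenase subunit typical of the heart (ENSMUSG00000030246, chromosome 6, 142490249 to 142507957, minus strand), was at 1.67, 1.83 and 0.969 CPM in allogeneic KO, 1.89, 1.32 and 1.45 in allogeneic WT, 7.03, 4.69 and 4.22 in syngeneic KO, and 4.31, 4.16 and 3.36 in syngeneic WT. Here every syngeneic library lay above every allogeneic one, at levels that were low throughout. Ldhb fell by 1.84 ± 0.29 on the log2 scale in allogeneic KO against syngeneic KO (edgeR adjusted p = 0.000558) and by 1.34 ± 0.29 in WT (edgeR adjusted p = 0.00334).

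Slc16a1, which encodes the carrier MCT1, was at 87.1, 84.9 and 63.7 CPM in allogeneic KO, 78.4, 56.0 and 68.9 in allogeneic WT, 90.2, 79.1 and 81.8 in syngeneic KO, and 89.4, 119.7 and 108 in syngeneic WT. In contrast to Slc16a3, it was lower in allogeneic WT than in syngeneic WT (log2 -0.64 ± 0.16, edgeR adjusted p = 0.00773), and the KO groups overlapped. Ldha was at 837, 858 and 508 CPM in allogeneic KO, 772, 543 and 583 in allogeneic WT, 793, 622 and 560.2 in syngeneic KO, and 516, 379 and 442 in syngeneic WT. Its log2 difference in WT, 0.51 ± 0.22, did not pass the test (edgeR adjusted p = 0.0948) but passed in the 6 WT libraries alone (0.0236) and with a replicate block over 12 or those 6 libraries (0.0442 and 0.00837), and in KO the groups overlapped (edgeR adjusted p = 0.634).

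**Figure D3:**
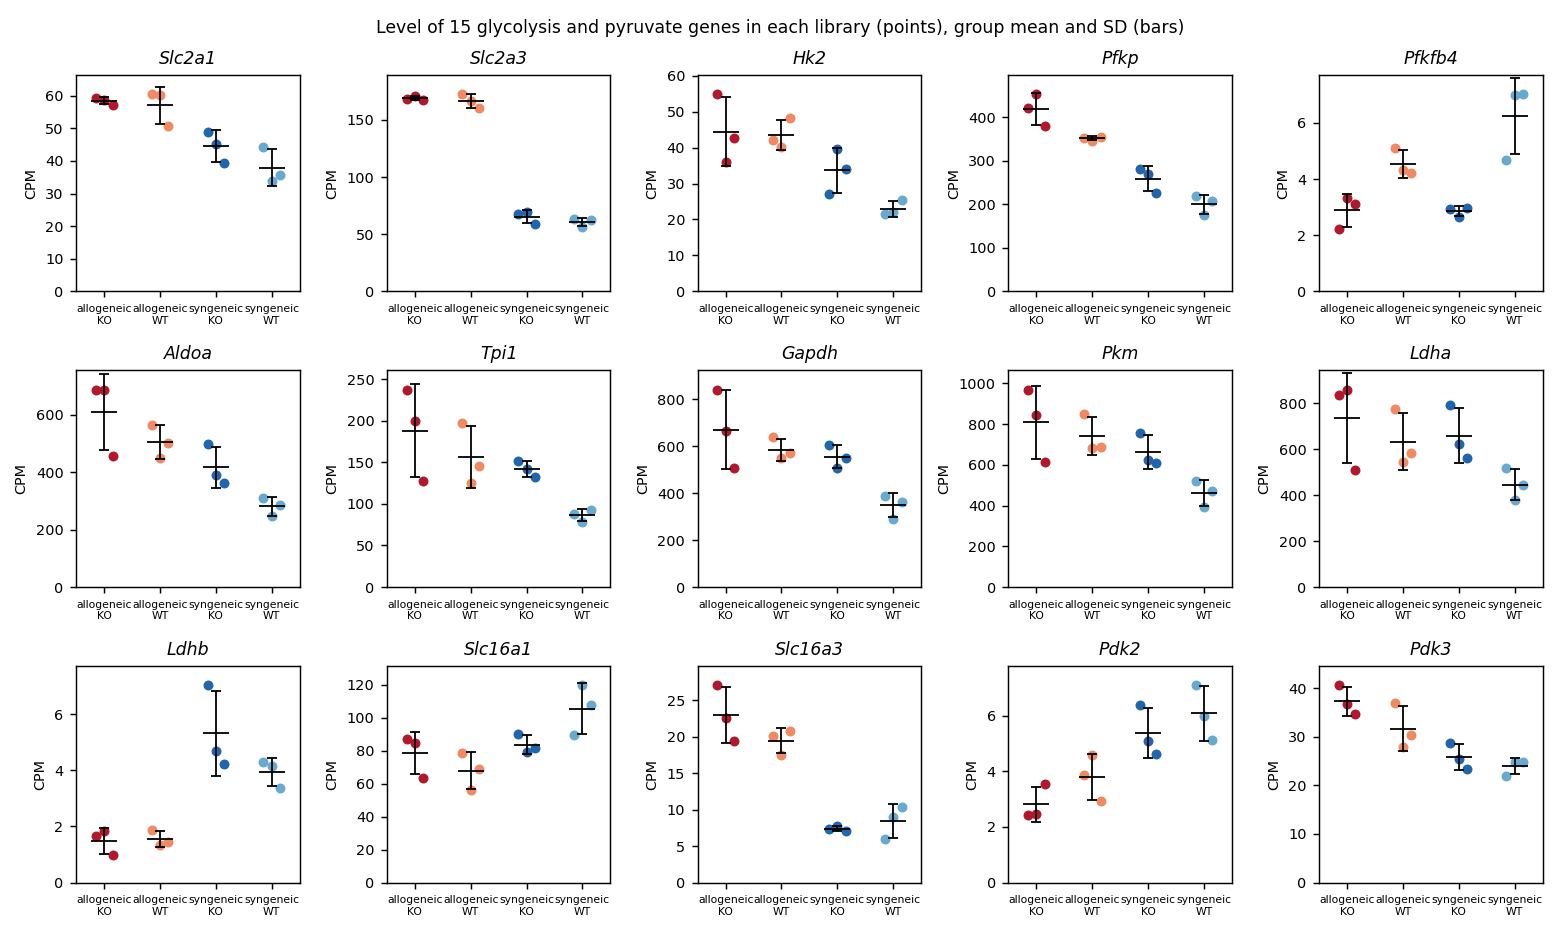
CPM of 15 members in each library, with points for libraries and black bars for the group mean and SD (n = 3), in the order allogeneic KO, allogeneic WT, syngeneic KO, syngeneic WT. Slc2a3, Pfkp and Slc16a3 lie higher and Ldhb lower in the 6 allogeneic than in the 6 syngeneic libraries without overlap, while Tpi1, Gapdh and Pkm are lowest in syngeneic WT.

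Among the 8 members that bring pyruvate into mitochondria or control that step, the kinases Pdk2 and Pdk3 were the ones that passed the test. Pdk3 was at 40.6, 36.6 and 34.6 CPM in allogeneic KO, 36.9, 27.8 and 30.3 in allogeneic WT, 28.7, 25.4 and 23.3 in syngeneic KO, and 22.0, 24.9 and 24.9 in syngeneic WT. It was higher in allogeneic cells by a log2 fold change of 0.53 ± 0.13 in KO (edgeR adjusted p = 0.0109) and 0.40 ± 0.13 in WT (edgeR adjusted p = 0.0326). Pdk2 ran the other way, at 2.44, 2.47 and 3.53 CPM in allogeneic KO, 3.89, 4.58 and 2.94 in allogeneic WT, 6.37, 5.09 and 4.64 in syngeneic KO, and 7.10, 6.01 and 5.14 in syngeneic WT. Its log2 fold change was -0.93 ± 0.24 in KO (edgeR adjusted p = 0.0118) and -0.68 ± 0.23 in WT (edgeR adjusted p = 0.0408). In KO the Pdk3 call was lost without syngeneic KO replicate 3 (adjusted p = 0.0518, edgeR) and the Pdk2 call without allogeneic KO replicate 2 (adjusted p = 0.0516, edgeR). In WT the Pdk3 call was lost without allogeneic WT replicate 1 or 3 or any 1 syngeneic WT library (adjusted p from 0.0526 to 0.146), and the Pdk2 call without those or syngeneic KO replicate 2 (from 0.0503 to 0.148). Upper-quartile scaling ended the Pdk3 call in WT (log2 0.29, edgeR adjusted p = 0.0631), and testing without the filter on low counts ended the Pdk2 call in WT (log2 -0.65, edgeR adjusted p = 0.0755). With a replicate block in the 6 libraries compared, Pdk3 was lost in KO (0.0629) and WT (0.0529) and Pdk2 in KO (0.0844), where it was also lost without the block (0.0502). With the block over 12 libraries Pdk2 was lost in WT (0.0507).

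The pyruvate carrier and the subunits of the dehydrogenase complex come next. Mpc1, a subunit of the mitochondrial pyruvate carrier, was at 15, 21.8 and 12.5 CPM in allogeneic KO, 16.6, 13.2 and 12.6 in allogeneic WT, 17.4, 11.4 and 11.8 in syngeneic KO, and 10.8, 10.9 and 11.4 in syngeneic WT. Mpc2, the other subunit, ran from 15.8 to 31.8 CPM in allogeneic KO, 14.7 to 21.9 in allogeneic WT, 18.1 to 31.3 in syngeneic KO and 20.3 to 21.1 in syngeneic WT. Pdha1, the catalytic subunit of pyruvate dehydrogenase, was at 115, 122 and 102 CPM in allogeneic KO, 133, 108 and 107 in allogeneic WT, 141, 109.5 and 114 in syngeneic KO, and 114, 98.8 and 96.1 in syngeneic WT. Dlat, the acetyltransferase subunit, was at 38.4, 36.6 and 31.9 CPM in allogeneic KO, 36.9, 28.6 and 31.0 in allogeneic WT, 39.9, 35.4 and 36.3 in syngeneic KO, and 32.5, 30.7 and 32.0 in syngeneic WT. Pdhb, the partner of Pdha1, averaged 39.9 ± 8.18, 34.7 ± 4.31, 38.6 ± 4.48 and 35.9 ± 1.43 CPM in allogeneic KO, allogeneic WT, syngeneic KO and syngeneic WT (SD, n = 3 each). Dld, the dehydrogenase that recharges the complex, averaged 41.7 ± 6.81, 37.4 ± 5.71, 34.4 ± 3.04 and 33.2 ± 1.87 CPM in the same order. These 6 genes passed no test in any of the comparisons.

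Some members near the threshold passed it once 1 library was left out. In KO, leaving out allogeneic KO replicate 3 brought in Tpi1 (log2 0.62, edgeR adjusted p = 0.0172), Pgk1 (0.52, 0.0243) and Pfkfb2 (-0.63, 0.0289). Leaving out allogeneic KO replicate 2 brought in Hk2 (log2 0.57, edgeR adjusted p = 0.0275) and Pfkfb3 (0.36, 0.0309). Hk1 passed in KO without allogeneic KO replicate 2 or syngeneic KO replicate 1 (adjusted p from 0.0193 to 0.0401) and in WT without allogeneic KO replicate 1 or 2 (from 0.0359 to 0.0397). In WT, Ldha passed without allogeneic KO replicate 3 (log2 0.51, edgeR adjusted p = 0.0406), and Gpi1 without allogeneic KO replicate 2 or 3, syngeneic KO replicate 1 or syngeneic WT replicate 1 (adjusted p from 0.0203 to 0.0428).

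The comparison of KO with WT asks how the genotypes differ in each setting. Loss of Wapl cannot be told apart there from the difference in Y-linked RNA. After allogeneic transplantation 0 of 34 members were called by edgeR, where 0.0542% of tested genes were called (0.0434% higher and 0.0108% lower). The 8 genes called higher include all 4 of the Y-linked genes named above. At an unadjusted p under 0.05 there were 2 members, beside 771 of all 18447 genes, and DESeq2 called 1, Eno3, where it called 0.417% of all genes. Eno3, the enolase typical of muscle, was at 17.3, 19.4 and 10.4 CPM in allogeneic KO and 9.44, 7.33 and 8.47 in allogeneic WT. The groups did not overlap, at a log2 fold change of 0.90 ± 0.22 (edgeR adjusted p = 0.404, DESeq2 adjusted p = 0.0248). Without allogeneic KO replicate 3 the Eno3 value was 1.13 (edgeR adjusted p = 0.0469). Pfkfb4 was at 2.23, 3.34 and 3.13 CPM in allogeneic KO and 5.12, 4.31 and 4.21 in allogeneic WT, again without overlap (log2 -0.65 ± 0.22, edgeR adjusted p = 0.963). Besides these, Pfkp was the only other member whose groups did not overlap, and 3.29% of all genes had KO above WT and 4.37% had KO below WT in this way. The median log2 fold change of the members was 0.14, beside 0.03 for all tested genes.

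After syngeneic transplantation edgeR called 1 of 34 members, where 3.37% of tested genes were called (0.743% higher and 2.63% lower). That member was Pfkfb4, a PFKFB isoform known from testis and tumours (ENSMUSG00000025648, chromosome 9, 108991778 to 109032228, plus strand), at 2.93, 2.65 and 2.97 CPM in syngeneic KO and 4.67, 7.00 and 7.02 in syngeneic WT. It fell by 1.13 ± 0.22 on the log2 scale (edgeR adjusted p = 0.0138). The call was lost without syngeneic KO replicate 2 or syngeneic WT replicate 2 or 3 (log2 -1.07 to -1.03, adjusted p from 0.0767 to 0.0792). KO libraries all lay above WT libraries for 13 members and below them for 2, where 13.2% and 10.1% of tested genes did so. Of the 13, 6 belong to the 7 members of the lower pathway. The log2 fold changes were 0.68 ± 0.18 for Gapdh (edgeR adjusted p = 0.0612, DESeq2 0.00775) and 0.72 ± 0.21 for Tpi1 (edgeR adjusted p = 0.0964, DESeq2 0.0278), and DESeq2 called 3 members, these and Pfkfb4, where it called 5.52% of all genes. Leaving out allogeneic KO replicate 3 brought Tpi1, Gapdh and Pgk1 under the threshold (adjusted p of 0.0226, 0.0236 and 0.0252), and leaving out allogeneic KO replicate 1 did so for Gapdh (0.0340), although the log2 fold changes moved little.

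Deviations from the group means correlated at 0.545, 0.170 and 0.335 between syngeneic KO and WT libraries of the same replicate number. Between different numbers the correlation was 0.363 for KO replicate 3 with WT replicate 2 and 0.114 for KO replicate 2 with WT replicate 3. The remaining pairs were negative (-0.501 to -0.206). A pairing by number is thus not established, and these 6 libraries were also fitted with a block for the replicate number. With that replicate block 12 members were called, 9 higher and 3 lower, where 7.29% of tested genes were called (2.16% higher and 5.13% lower). The 9 that were higher in syngeneic KO were Hk2, Aldoa, Tpi1, Gapdh, Pgk1, Pgam1, Eno1, Pkm and Ldha. They include 1 hexokinase and steps from the aldolase to lactate, while Gpi1 and the phosphofructokinases Pfkl, Pfkm and Pfkp, which act between them, were not called. Their blocked log2 fold changes ran from 0.37 for Pgam1 (edgeR adjusted p = 0.0371) to 0.68 for Tpi1 (edgeR adjusted p = 0.00217). Gapdh followed at 0.64 (edgeR adjusted p = 0.00288), Pgk1 at 0.59 (0.00278), Aldoa at 0.52 (0.0129) and Ldha at 0.52 (0.0150). Hk2 was at 0.50 (edgeR adjusted p = 0.0376), Pkm at 0.49 (0.0165) and Eno1 at 0.47 (0.0161). The 3 that were lower with the block were Pfkfb4 (log2 -1.15, edgeR adjusted p = 0.00624), Pfkfb2 (-0.64, 0.0252) and Hk3 (-1.01, 0.0439). Without a block the same 6 libraries gave 3 members. The summed erythroid markers were 2485 to 5952 CPM in syngeneic WT and at most 253 CPM in the other 9 libraries, the T cell markers summed to least in syngeneic WT by group mean, and Hk3 had the order of the myeloid markers within these 2 groups. Their part in these differences was not tested.

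**Figure D4:**
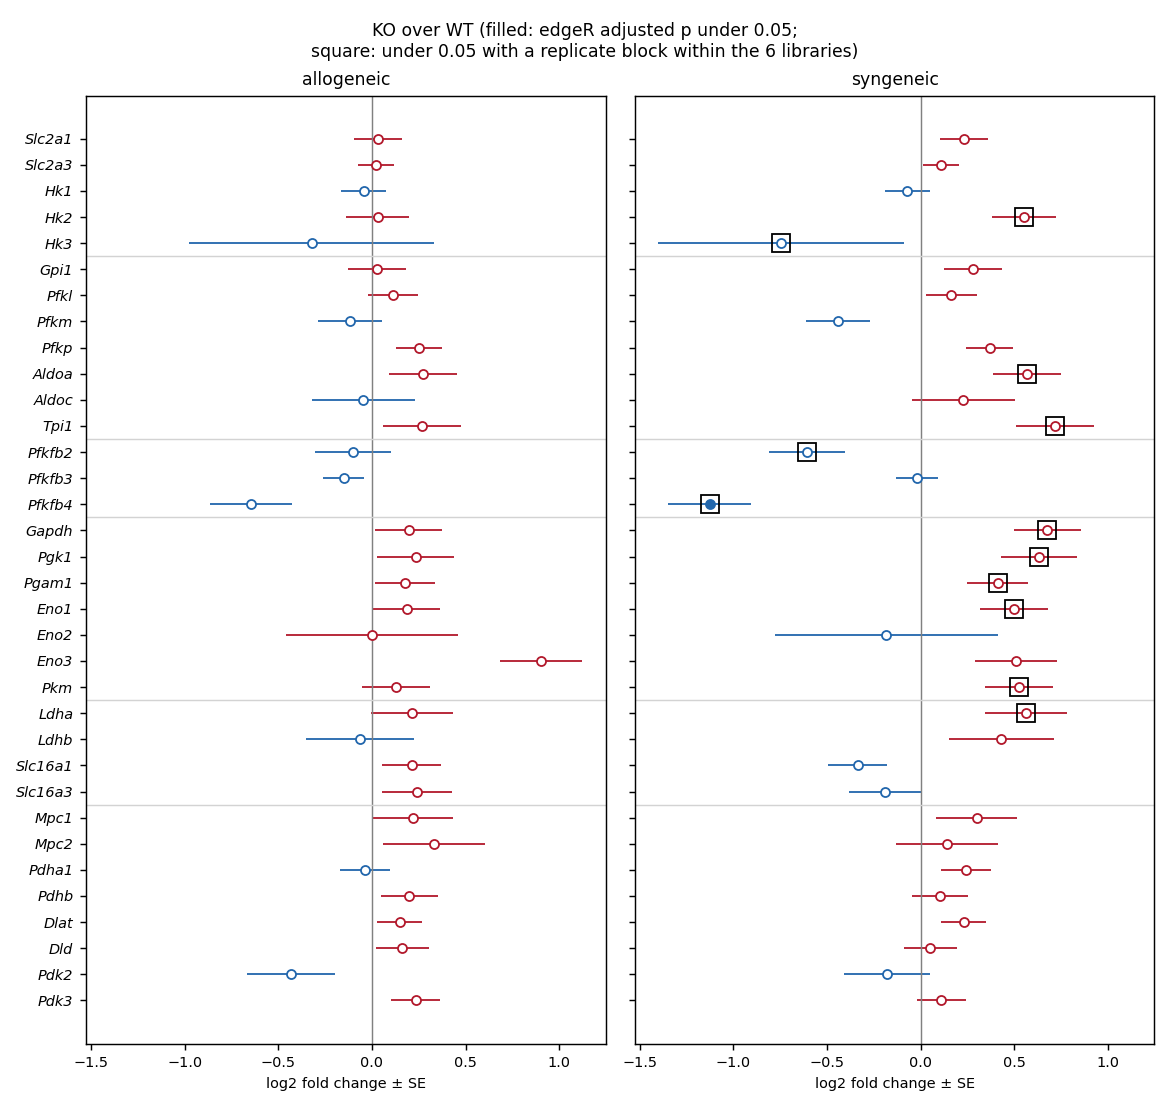
Log2 fold change of each member in KO over WT, for allogeneic cells on the left and syngeneic cells on the right, with bars for the standard error, filled points for an edgeR adjusted p under 0.05 and squares for one under 0.05 with a replicate block. Pfkfb4 after syngeneic transplantation is the only filled point, and 12 members carry a square there.

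Whether the response to transplant type differs between genotypes was tested directly as an interaction. For the members edgeR called 0 of 34, where 0.477% of tested genes were called (0.428% higher and 0.0488% lower), and DESeq2 also called 0, where it called 1.59% of genes. At an unadjusted p under 0.05 there were 2 members, beside 1144 of all 18447 genes. Hk2 had an interaction of -0.52 ± 0.24 (log2, edgeR adjusted p = 0.795), the difference between 0.40 in KO and 0.92 in WT. Slc16a1 had one of 0.55 ± 0.22 (edgeR adjusted p = 0.648). The 8 calls in KO and 17 in WT are thus not shown to differ for any single member.

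Shares within a family of paralogues do not depend on library size, so they were compared next, per kb of exon, by exact permutation over the 12 libraries within genotype or within transplant type. There were 18 such tests, and the smallest p that the 400 arrangements allow is 0.005. Each difference was averaged over both genotypes or over both transplant types. The balance of GLUT1 and GLUT3 shifted with the transplant type. Slc2a1 made up 42.2, 41.5 and 41.4% of the pair in allogeneic KO, 42.0, 42.8 and 39.4% in allogeneic WT, 59.8, 57.4 and 57.9% in syngeneic KO, and 59.2, 55.2 and 54.2% in syngeneic WT. Per kb, Slc2a3 held the larger share in every allogeneic library and Slc2a1 in every syngeneic one. Which of them is larger turns on the length scaling, since in counts alone Slc2a1 held 24 to 26.6% in allogeneic and 36.4 to 41.9% in syngeneic libraries, and so Slc2a3 was larger throughout. The difference was -15.7 percentage points per kb (two-sided exact permutation p = 0.005, adjusted p = 0.0129) and -13.8 points in counts alone, with the same adjusted p. Among the monocarboxylate carriers Slc16a3 made up 20.5, 18.1 and 20.2% in allogeneic KO, 17.6, 20.7 and 20.1% in allogeneic WT, 6.37, 7.53 and 6.68% in syngeneic KO, and 5.23, 5.89 and 7.41% in syngeneic WT, a difference of 13 points (exact p = 0.005, adjusted p = 0.0129). MCT1 remained the larger part in each library.

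Pfkp made up 66.7, 73.4 and 70.8% of the phosphofructokinases in allogeneic KO, 66.3, 68.7 and 66.9% in allogeneic WT, 60.1, 59.4 and 55.7% in syngeneic KO, and 54.8, 47.6 and 50.9% in syngeneic WT. Its difference was 14.1 points per kb and 8.83 points in counts alone. Pfkfb3 averaged 83.4 ± 3.07% of its family in allogeneic KO, 81.2 ± 0.728% in allogeneic WT, 78.5 ± 1.18% in syngeneic KO and 67.8 ± 5.52% in syngeneic WT, a difference of 9.18 points. Pdk3 averaged 94.2 ± 1.60%, 91.0 ± 2.44%, 85.6 ± 0.755% and 82.9 ± 3.25% of Pdk2 and Pdk3 in the same groups, a difference of 8.35 points. Ldha averaged 99.6 ± 0.0245%, 99.5 ± 0.00634%, 98.3 ± 0.156% and 98.1 ± 0.360% of the 2 dehydrogenase subunits, a difference of 1.29 points. Each of these 4 differences had an exact permutation p of 0.005 and an adjusted p of 0.0129, and in none did the 6 allogeneic and 6 syngeneic libraries overlap. Aldoa, at over 99% of the aldolases in every library, differed by 0.154 points (exact p = 0.005, adjusted p = 0.0129) with overlap, and Eno1 by 2.33 points (exact p = 0.045, adjusted p = 0.0579), which passed without allogeneic KO replicate 2 (2.83 points, adjusted p = 0.0245, exact permutation). Eno1 averaged 88.2% of the enolases in allogeneic and 88.1% in syngeneic KO, and 92.4% in allogeneic and 87.9% in syngeneic WT. Its difference thus lay in WT.

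Hk2 averaged 17.8 ± 1.04% of the hexokinases in allogeneic KO, 16.9 ± 1.5% in allogeneic WT, 16.7 ± 2.86% in syngeneic KO and 11.1 ± 0.599% in syngeneic WT. The allogeneic minus syngeneic difference was 3.45 points (exact permutation p = 0.03, adjusted p = 0.0415), and it was no longer past the threshold without any 1 library other than allogeneic KO replicate 2 and syngeneic KO replicate 2 (2.81 to 3.78 points, adjusted p from 0.0525 to 0.0825). Between genotypes, averaged over both transplant types, the KO minus WT difference was 3.26 points for Hk2 and 5.14 points for Pfkp (exact p = 0.02, adjusted p = 0.036 for both), 6.46 for Pfkfb3 (exact p = 0.015, adjusted p = 0.0338), and 0.114 for Aldoa and 2.96 for Pdk3 (exact p = 0.025, adjusted p = 0.0375 for both). For Hk2 the gap lay mainly in syngeneic cells, by the means above. The same held for Pfkfb3, at 78.5% and 67.8% in syngeneic and 83.4% and 81.2% in allogeneic KO and WT. Pdk3 had a similar gap in both, at 85.6% and 82.9% in syngeneic and 94.2% and 91.0% in allogeneic KO and WT. Each of the 5 differences was lost with single libraries left out. For Hk2 these were allogeneic KO replicate 1, allogeneic WT replicates 1 and 2, syngeneic KO replicate 2 and all syngeneic WT libraries (2.49 to 3.40 points, adjusted p from 0.05 to 0.0831). For Pfkp they were allogeneic KO replicate 2, allogeneic WT replicate 1, all syngeneic KO libraries and syngeneic WT replicate 2 (4.26 to 5.81 points, 0.0525 to 0.072). For Pfkfb3 they were allogeneic KO replicate 1, allogeneic WT replicates 1 and 2 and all syngeneic KO libraries (5.57 to 6.66 points, 0.05 to 0.09). For Aldoa they were allogeneic KO replicate 1, all allogeneic WT libraries, syngeneic KO replicates 2 and 3 and syngeneic WT replicates 1 and 2 (0.0915 to 0.121 points, 0.0525 to 0.0836). For Pdk3 they were replicates 1 and 2 of allogeneic KO, allogeneic WT and syngeneic WT, with syngeneic KO replicates 2 and 3 (2.07 to 3.24 points, 0.05 to 0.109). In counts alone the Pfkp difference between genotypes was 3.06 points (adjusted p = 0.045, exact permutation), and the allogeneic minus syngeneic differences were 0.618 points for Ldha and 0.896 for Eno1. The other 4 shares did not pass the test between genotypes, with adjusted p of 0.249 for Slc2a1, 0.096 for Eno1, 0.208 for Ldha and 0.525 for Slc16a3 (exact permutation).

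**Figure D5:**
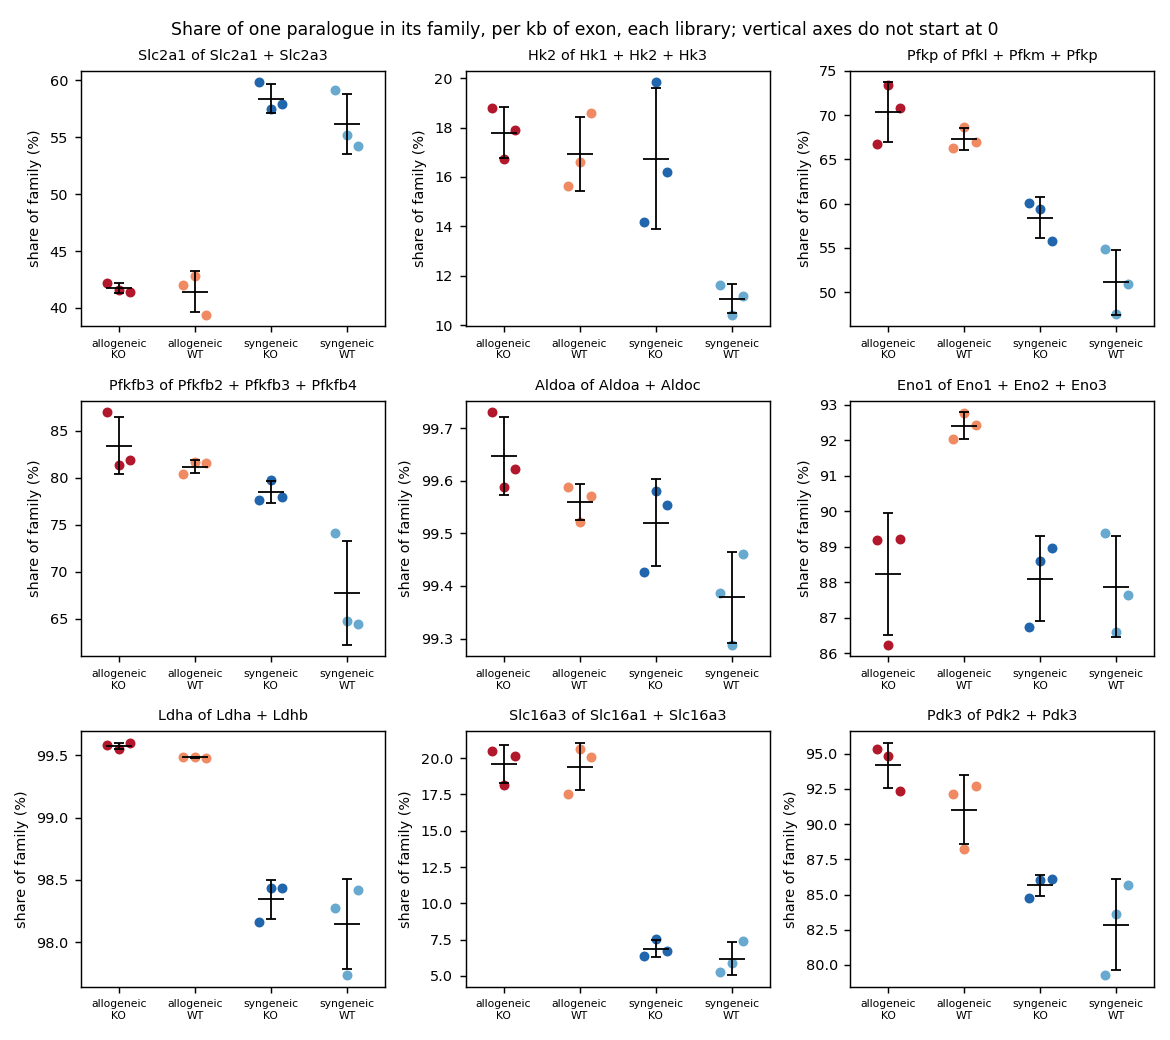
Share of one paralogue in the summed level of its family, in percent of CPM per kb, for each library (points) with group mean and SD (bars), in the order allogeneic KO, allogeneic WT, syngeneic KO, syngeneic WT. The vertical axes do not start at 0, and the Slc2a1, Pfkp, Pfkfb3, Ldha, Slc16a3 and Pdk3 panels separate the 6 allogeneic from the 6 syngeneic libraries.

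The wider network of glucose and pyruvate metabolism was read from a list of 86 further genes, of which 83 were in the table and 75 were tested. In KO 9 of the 75 were higher and 10 lower in allogeneic cells, and in WT 16 were higher and 10 lower, with 13 called in both. That is 25.3% of the 75 in KO and 34.7% in WT, close to the 24.4% and 32.3% of all tested genes. Slc2a8, which encodes GLUT8, averaged 22.3 ± 2.09 CPM in allogeneic KO, 28.7 ± 6.23 in allogeneic WT, 5.36 ± 0.370 in syngeneic KO and 5.07 ± 0.733 in syngeneic WT (log2 2.05 ± 0.18 in KO and 2.50 ± 0.18 in WT, edgeR adjusted p = 4.64e-06 and 7.13e-07). Hif1a, the oxygen-regulated factor that drives many glycolytic genes, averaged 289 ± 23.9 CPM in allogeneic KO, 241 ± 28.8 in allogeneic WT, 118 ± 12.1 in syngeneic KO and 90.8 ± 4.45 in syngeneic WT. Myc, another activator of these genes, stood the other way round, at 76.8 ± 14.2 CPM in allogeneic KO, 82.4 ± 6.40 in allogeneic WT, 189 ± 21.6 in syngeneic KO and 190.4 ± 21.2 in syngeneic WT. The log2 fold changes were 1.29 ± 0.12 in KO and 1.41 ± 0.12 in WT for Hif1a (edgeR adjusted p = 1.03e-05 and 3.46e-06) and -1.30 ± 0.15 and -1.21 ± 0.15 for Myc (3.74e-05 and 4.89e-05).

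Pdk1, the kinase of pyruvate dehydrogenase known as a target of Hif1a, averaged 26.2 ± 1.16 CPM in allogeneic KO, 30.6 ± 5.41 in allogeneic WT, 142 ± 35.2 in syngeneic KO and 152 ± 26.2 in syngeneic WT. It thus fell in allogeneic cells while Pdk3 was higher, with log2 fold changes of -2.44 ± 0.19 in KO (edgeR adjusted p = 1.80e-06) and -2.31 ± 0.19 in WT (edgeR adjusted p = 1.83e-06). Pdk3 averaged 37.3, 31.7, 25.8 and 23.9 CPM in the same order of groups, far below Pdk1 in both syngeneic groups. The share of Pdk3 given above does not include Pdk1. Gpd2, the mitochondrial glycerol phosphate dehydrogenase, was higher by 1.18 ± 0.13 and 1.09 ± 0.13, and Pygm, the muscle glycogen phosphorylase, by 1.37 ± 0.24 and 1.12 ± 0.24 on the log2 scale in KO and WT. Arrdc4, a relative of the thioredoxin-interacting protein that limits glucose uptake, was lower by log2 -2.29 ± 0.23 in KO and -1.83 ± 0.23 in WT, and Gys1, a glycogen synthase, was lower in KO by log2 -0.74 ± 0.13. Gys1 was among the genes called in both genotypes, and its WT call held in 7 fits with 1 library left out (edgeR adjusted p up to 0.0927). Slc2a4, which encodes the insulin-regulated GLUT4, was called lower in WT (log2 -6.79 ± 0.68, edgeR adjusted p = 1.24e-05), where it averaged 0.0859 ± 0.0608 CPM in allogeneic and 9.30 ± 4.82 in syngeneic WT.

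Between KO and WT, 0 of the 75 genes passed the test after allogeneic transplantation (edgeR and DESeq2, with 7 at an unadjusted p under 0.05, beside 771 of all 18447 genes). After syngeneic transplantation 0 were higher and 4 lower in KO, which is 5.33% of the 75, beside 3.37% of all tested genes (2.63% lower). These were Slc2a4 (log2 -6.10 ± 0.66, edgeR adjusted p = 0.000309), Bpgm, which makes the red cell metabolite 2,3-bisphosphoglycerate (-2.05 ± 0.22, 0.000226), Pcx, pyruvate carboxylase (-1.19 ± 0.24, 0.0178), and Adpgk, the ADP-dependent glucokinase (-0.57 ± 0.14, 0.0415). Slc2a4 and Bpgm had their high level in syngeneic WT, the group with the high erythroid sums. The Pcx call was lost without syngeneic KO or WT replicate 2 or 3 (adjusted p up to 0.107), and the Adpgk call in 8 of the 12 fits with 1 library left out, namely those without allogeneic WT replicate 1 or 2 or any syngeneic library (up to 0.169).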

How the data were processed

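RNA of sorted donor T cells was sequenced after removal of ribosomal RNA, per the labels' protocols. The deposited table holds expected counts (estimated counts that need not be whole) per gene and library, and 96.6 to 97.3% of values were whole within 0.001. Tools in the submitters' processing notes are Cuffdiff 2.2.1 and Cufflinks, Bowtie2 2.2.1 and TopHat2 2.0.13, with the build GRCm38. Which of them made the counts, the annotation and the strand setting are not given in the sources used here, so reads of overlapping or antisense genes and of near-identical pseudogene copies (Gapdh, Tpi1, Ldha and Pgk1 have such copies) may be shared.

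Of the 18 columns, 12 matched a sample by name and 6 were not used. Likewise 6 of the 18 labelled samples, from naive cells, were not analysed here. Counts were rounded, and genes were kept by filterByExpr with a minimum count of 10 in edgeR 4.0.16 (R 4.3.3). CPM were counts per 1000000 of the library size after TMM scaling, and CPM per kb used the union of exons in GENCODE M21, to which 45139 gene IDs matched. Groups were compared with edgeR's robust quasi-likelihood test over 12 libraries (biological coefficient of variation 0.249), with Benjamini-Hochberg adjustment over all 18447 genes and a threshold of 0.05. The standard error was the log2 fold change over the square root of F. The set of 58 ribosomal RNA genes includes 3 annotated as long noncoding RNA over the repeat. The labels do not say whether replicates share a batch, and each is a pool of mice, so p-values measure the spread between these pools.

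Pairing was checked as the correlation of deviations from the group means. Same-numbered syngeneic KO and WT libraries gave 0.545, 0.170 and 0.335, but syngeneic KO replicate 3 with WT replicate 2 gave 0.363. Other comparisons had at least 1 same-numbered pair under 0.1. The replicate block was therefore read beside the syngeneic result, as a second fit whose pairing is not established. In the comparisons of transplant type it was only an alternative setting. Calls gained or lost with the block there rest on no shown pairing, and no conclusion is drawn from them. DESeq2 1.42.0, other scalings, no filter, removal of ribosomal RNA genes, smaller fits, the block and 1 library left out at a time were tried. Scripts were tested on simulated data. Named genes were all called members, a list of 19 central enzymes and carriers, and the smallest p of each role. The members, gene lists and tests were chosen with earlier results of these data known. Promoter sequences came from RefSeq on GRCm38.p6.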

Additional observations from a re-analysis of the deposited data

Results flagged for a closer look

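Among the genes of glucose and pyruvate metabolism outside the 34, Bpgm was picked out because its response to transplant type differed between genotypes by the test of that difference. Bpgm averaged 20.8 ± 3.71 CPM in allogeneic KO, 22.1 ± 4.20 in allogeneic WT, 17.2 ± 3.47 in syngeneic KO and 71.5 ± 17.4 in syngeneic WT (SD, n = 3 each). The interaction was 1.96 ± 0.30 on the log2 scale (edgeR adjusted p = 0.0132), and it passed the test in all 12 fits with 1 library left out (adjusted p from 0.00296 to 0.0491). The summed erythroid markers were 84.7 to 106 CPM in allogeneic KO, 53.6 to 177 in allogeneic WT, 90.9 to 253 in syngeneic KO and 2485 to 5952 in syngeneic WT, and their part in this result was not tested.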

How the results depend on the processing

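Of 834 member fold changes under single alternative settings, 786 kept their direction and side of the threshold, 14 lost the call, 34 gained one and 0 reversed, and the cause of these changes was not tested. With 1 library left out the same held for 1251 of 1308, while 36 lost the call, 19 gained one and 2 reversed, namely 2 genes in allogeneic KO against allogeneic WT without allogeneic KO replicate 2. Mpc1 was at -0.050 there, in a range from -0.050 to 0.38, and Mpc2 at -0.055, in a range from -0.055 to 0.53. For syngeneic KO against syngeneic WT the count of 1 member became 3 with DESeq2, 2 with upper-quartile scaling, 2 with no filter, 2 with the replicate block over 12 libraries, 12 with the replicate block in 6 libraries, 3 in those 6 without a block, and 0 to 4 with 1 library left out. Over all genes that count was 622, and it became 1018 with DESeq2, 1287 with the replicate block in 6 libraries, 349 in 6 libraries without a block and 260 to 742 with 1 library left out. For allogeneic KO against allogeneic WT the 0 members became 1 with DESeq2 and 0 to 1 with 1 library left out, and the 10 genes (8 higher, 2 lower) became 77 with DESeq2 (30 higher, 47 lower), 6 in 6 libraries and 3 to 15. For allogeneic KO against syngeneic KO the 8 members became 4 with the replicate block in 6 libraries, 5 in 6 libraries without it and 5 to 10 with 1 library left out, and the 4500 genes became 2266, 2669 and 3062 to 5397. For allogeneic WT against syngeneic WT the 17 members ran from 12 to 19 and the 5955 genes from 4110 to 6899 with 1 library left out. The interaction held 0 members in all fits with 1 library left out and 88 genes, which became 293 with DESeq2 and 28 to 242. Upper-quartile scaling moved the median of all genes by -0.11 in both comparisons of transplant type, and in KO its calls were 2012 higher and 2585 lower, beside 2439 and 2061.

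For the shares, permuting within replicate number (64 arrangements) left the differences as they were, and none of them passed the threshold, with a smallest adjusted p of 0.0625. So few arrangements set a floor under p. After adjustment over all share tests, a share could pass only if most of them sat at that floor. This test therefore cannot decide whether the differences hold under a replicate block, and no conclusion is drawn from it. Under that replicate block the allogeneic minus syngeneic differences of -15.7 (Slc2a1), 14.1 (Pfkp), 9.18 (Pfkfb3), 0.154 (Aldoa), 1.29 (Ldha), 13 (Slc16a3) and 8.35 points (Pdk3) had an adjusted p of 0.0625, and 3.45 (Hk2) one of 0.121. The KO minus WT differences of 5.14 (Pfkp) and 0.114 (Aldoa) had 0.0625, 6.46 (Pfkfb3) and 2.96 (Pdk3) had 0.102, and 3.26 (Hk2) had 0.121. Without division by length Hk2 differed by 2.58 points between transplant types and 2.46 between genotypes (adjusted p of 0.0554 and 0.0579, exact permutation). With 1 library left out, allogeneic minus syngeneic differences ran from -16.2 to -15 for Slc2a1, 2.81 to 4.22 for Hk2, 13.2 to 15 for Pfkp, 8.30 to 10.8 for Pfkfb3, 0.131 to 0.175 for Aldoa, 1.99 to 2.83 for Eno1, 1.19 to 1.36 for Ldha, 12.7 to 13.5 for Slc16a3 and 7.46 to 9.05 for Pdk3. KO minus WT differences ran from 0.734 to 1.98 for Slc2a1, 2.49 to 3.90 for Hk2, 4.26 to 6.07 for Pfkp, 5.57 to 8.05 for Pfkfb3, 0.0915 to 0.137 for Aldoa, -2.31 to -1.49 for Eno1, 0.0455 to 0.217 for Ldha, -0.0331 to 0.805 for Slc16a3 and 2.07 to 3.66 for Pdk3, with Slc16a3 reversed at -0.0331 without allogeneic WT replicate 1.

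With 3 pools a group, radiation and T cell dose tied to the transplant type and other cells in some libraries, small differences could not be resolved. Fits with 1 library left out assume that a thinner group varies like the others.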

Other observations

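The 9 B cell markers summed to 15.8 to 24.4 CPM in allogeneic KO, 11.4 to 14.3 in allogeneic WT, 15.3 to 21.7 in syngeneic KO and 16.9 to 20.6 in syngeneic WT. Most of this sum was Cd79b, with means of 17.1, 10.2, 15.1 and 10.3 CPM in the same order. In allogeneic against syngeneic cells, edgeR called 5 of the 9 lower and 0 higher in WT, and 1 higher and 1 lower in KO. The 6 NK cell markers summed to 106 to 138 CPM in allogeneic KO, 83.9 to 109 in allogeneic WT, 166 to 187 in syngeneic KO and 147 to 182 in syngeneic WT. Most of this sum was Eomes, with means of 76.0, 63.5, 167 and 152 CPM in the same order. Klrb1c ran the other way, at 35.1, 28.4, 6.47 and 6.09 CPM, as did Ncr1, at 3.57, 1.62, 0.176 and 0.594 CPM. In allogeneic against syngeneic cells, edgeR called 2 of the 6 higher and 3 lower in each genotype. The 6 platelet markers summed to 0.540 to 2.55 CPM in allogeneic KO, 1.56 to 2.15 in allogeneic WT, 0.683 to 1.82 in syngeneic KO and 2.54 to 5.37 in syngeneic WT. The 20 proliferation genes summed to 4585 to 6810 CPM in allogeneic KO, 3847 to 4952 in allogeneic WT, 4615 to 5160 in syngeneic KO and 3923 to 5140 in syngeneic WT.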
